A study of Homo sapiens with 12 samples.

Results

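The genes described here encode proteins that sense or edit double-stranded and otherwise foreign-looking RNA in the cytosol and endosome, and an adaptor. They are DDX58 (RIG-I), IFIH1 (MDA5), DHX58 (LGP2), MAVS, TLR3, EIF2AK2 (PKR), ZBP1 and ADAR. MAVS is the adaptor that RIG-I and MDA5 share. These 8 members were taken from the 39368 gene symbols of the count tables by name. All 8 were listed in the tables of both cell lines.

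RNA-seq was performed on CAL27 and HSC3 cells, which are established HPV-negative lines of head and neck squamous cell carcinoma (HNSCC). Both carry a tet-MUC1shRNA vector, in which doxycycline (DOX) switches on a short hairpin RNA against MUC1, the gene of the transmembrane mucin MUC1. In each line, 3 cultures were treated with 0.1% DMSO as vehicle and 3 with 500 ng/ml DOX, all for 7 days, which gives 12 poly(A) libraries in 4 groups. The vehicle cultures carry the same uninduced vector as the DOX cultures, and all cells were selected in puromycin. No DOX-treated library with a control hairpin was analysed here, so effects of DOX itself and of the hairpin cannot be told apart. Each group is 1 cell line, so p-values measure the spread between cultures of that line. The labels do not say whether the transduced cells were a clone or a pool.

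RIG-I and MDA5 are helicases that bind viral or misplaced cellular RNA. RIG-I recognizes short RNA with 5′-triphosphate ends, and MDA5 recognizes long duplexes. LGP2 is a relative of both that lacks their signalling domains and tunes their activity. Bound RIG-I and MDA5 assemble MAVS on mitochondria, which leads to activation of IRF3, IRF7 and NF-κB and to type I and type III interferon (IFN). TLR3 senses double-stranded RNA inside endosomes and signals through TICAM1 rather than MAVS. PKR is a kinase that phosphorylates eIF2α and slows translation when it binds duplex RNA. ZBP1 binds Z-form RNA and DNA and can start cell death through RIPK3. ADAR edits adenosine to inosine in duplex RNA, which keeps cellular RNA from being sensed by MDA5 and PKR. Most of these genes are themselves IFN-stimulated genes (ISGs), and MAVS is known as a largely constitutive adaptor.

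Library totals ranged from 92866845 to 126328662 counts in CAL27 and from 89730914 to 169065103 in HSC3. The estimated number of counts that stand for 1 captured molecule was 2.61 to 3.46 in CAL27, 4.36 to 7.53 in HSC3 vehicle and 7.76 to 15.6 in HSC3 DOX libraries. The estimate takes its expected counts from the other libraries of the line, vehicle and DOX together. Genes that DOX changes can therefore raise it, and the gap between HSC3 vehicle and DOX libraries is not read as depth alone. Low HSC3 values rest on fewer molecules than their counts. Levels are given as CPM, the counts of a gene scaled to an equal total per library, after TMM scaling of the 12 libraries together. MUC1, the target of the hairpin, was at 58.4, 53.1 and 54.3 CPM in the CAL27 vehicle libraries and at 2.92, 2.76 and 3.25 CPM with DOX. In HSC3 it was at 1.66, 1.97 and 1.64 CPM with vehicle and at 0.310, 0.267 and 0.132 CPM with DOX. The MUC1 gene was thus lower in every DOX library of both lines, and its vehicle level in HSC3 was below that of the CAL27 DOX libraries. All 8 squamous epithelial markers examined averaged above 1 CPM in every group. Their summed level moved with DOX, from 6770 to 7050 CPM down to 3410 to 3670 CPM in CAL27 and from 6870 to 7530 CPM down to 3410 to 3790 CPM in HSC3, and its part in the results was not tested. The 4 fibroblast markers summed to at most 12.2 CPM in any library, the 4 leukocyte markers to at most 5.23 CPM and the 4 endothelial markers to at most 15.7 CPM. In HSC3, 2 of the fibroblast markers were at 0 in every vehicle library and 3 in every DOX library. As these are bulk libraries, fewer cells with a transcript and less of it per cell cannot be told apart.

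The start sites of the members were read from RefSeq promoter windows (GRCh38.p14), each of 300 bases with 250 before the start site and 50 from it on. A window was listed for 6 of the 8 members, with 3 alternative windows for ADAR. DHX58 and ZBP1 had no entry. The windows were searched on both strands for the core of the IFN-stimulated response element, written GAAANNGAAA, and for the core of the gamma-activated site, written TTCNNNGAA. The response element core was present in the windows of IFIH1, TLR3 and EIF2AK2, 3 of the 6 members and 3 of their 8 windows. Of all 34943 windows, 3.57% held it. The gamma-activated core was present in TLR3 only among the members, at 2 places that each read the same motif on both strands, and in 7.66% of all windows. The windows with a response element core are printed with that core in capitals. The window of MAVS follows, which held neither core and was chosen as that of the member that changed least in CAL27.
IFIH1, chr2:162318635-162318934, minus strand: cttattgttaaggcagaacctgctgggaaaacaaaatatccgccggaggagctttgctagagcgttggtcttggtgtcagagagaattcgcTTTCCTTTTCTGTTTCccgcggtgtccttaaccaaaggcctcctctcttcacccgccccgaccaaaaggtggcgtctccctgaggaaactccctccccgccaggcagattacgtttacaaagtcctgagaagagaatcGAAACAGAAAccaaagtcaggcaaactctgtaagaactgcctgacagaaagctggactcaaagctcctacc
TLR3, chr4:186068906-186069205, plus strand: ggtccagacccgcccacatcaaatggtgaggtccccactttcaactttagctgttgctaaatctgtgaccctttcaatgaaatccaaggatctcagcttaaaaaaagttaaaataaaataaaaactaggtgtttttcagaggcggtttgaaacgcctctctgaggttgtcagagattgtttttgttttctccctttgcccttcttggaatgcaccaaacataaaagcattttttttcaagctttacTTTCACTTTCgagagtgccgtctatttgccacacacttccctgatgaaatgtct
EIF2AK2, chr2:37156931-37157230, minus strand: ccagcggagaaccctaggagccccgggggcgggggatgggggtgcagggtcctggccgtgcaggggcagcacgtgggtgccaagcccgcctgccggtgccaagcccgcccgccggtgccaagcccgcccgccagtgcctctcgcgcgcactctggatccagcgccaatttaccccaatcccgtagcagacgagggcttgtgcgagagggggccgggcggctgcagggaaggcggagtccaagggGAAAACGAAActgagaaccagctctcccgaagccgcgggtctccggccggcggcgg
MAVS, chr20:3846584-3846883, plus strand: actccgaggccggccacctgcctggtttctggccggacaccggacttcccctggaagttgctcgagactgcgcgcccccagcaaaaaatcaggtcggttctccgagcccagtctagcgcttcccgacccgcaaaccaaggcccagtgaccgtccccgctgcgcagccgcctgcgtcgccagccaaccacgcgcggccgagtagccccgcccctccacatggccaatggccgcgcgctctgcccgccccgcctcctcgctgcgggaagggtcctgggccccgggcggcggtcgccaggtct
In IFIH1 there were 3 matches, of which 2 overlapped on the opposite strand and 1 lay at positions -21 to -12, counted from 0 at the start site. The EIF2AK2 match covered positions -6 to 3 and the TLR3 match positions -4 to 5. A match is a description of letters in this window, and the part of the cores in the DOX responses was not tested. The windows of DDX58 and ADAR, not printed, also held neither core in this form. Both genes were lower with DOX in CAL27 too, at 46.5% and 72.1% of vehicle.

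In vehicle-treated cells, the sensors stood at very different levels. Per kb of each gene's canonical transcript, ADAR was the most abundant member in CAL27 at 122.6 CPM per kb (118.7 to 124.9 over the 3 libraries). EIF2AK2 followed at 47.11 CPM per kb (44.09 to 49.74), IFIH1 at 26.29 (24.60 to 27.69) and MAVS at 20.68 (20.57 to 20.81). DHX58 was at 6.41 CPM per kb, TLR3 at 5.14, DDX58 at 1.02 and ZBP1 at 0.477. The ranges of neighbours in this order did not overlap. In HSC3 vehicle libraries, MAVS came after EIF2AK2 at 26.93 CPM per kb (26.66 to 27.13) and then IFIH1 at 8.14 (7.57 to 8.59), and TLR3 at 4.63 stood above DHX58 at 1.20. No neighbours overlapped there either. With DOX, the order in CAL27 became that of HSC3 for MAVS and IFIH1, at 18.72 and 11.83 CPM per kb. Per kb of all annotated exons, IFIH1 stood below MAVS already in the CAL27 vehicle libraries (mean 18.02 against 20.6). This change of order was thus seen only with the canonical length. In CAL27 DOX libraries TLR3 (1.97 to 2.48 CPM per kb) and DHX58 (1.57 to 2.08) overlapped, which was the only overlap of neighbours in the 4 groups. Levels per kb depend on the transcript chosen, and the study's methods name a release of GRCh38 without saying which gene models were counted.

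**Figure D1:**
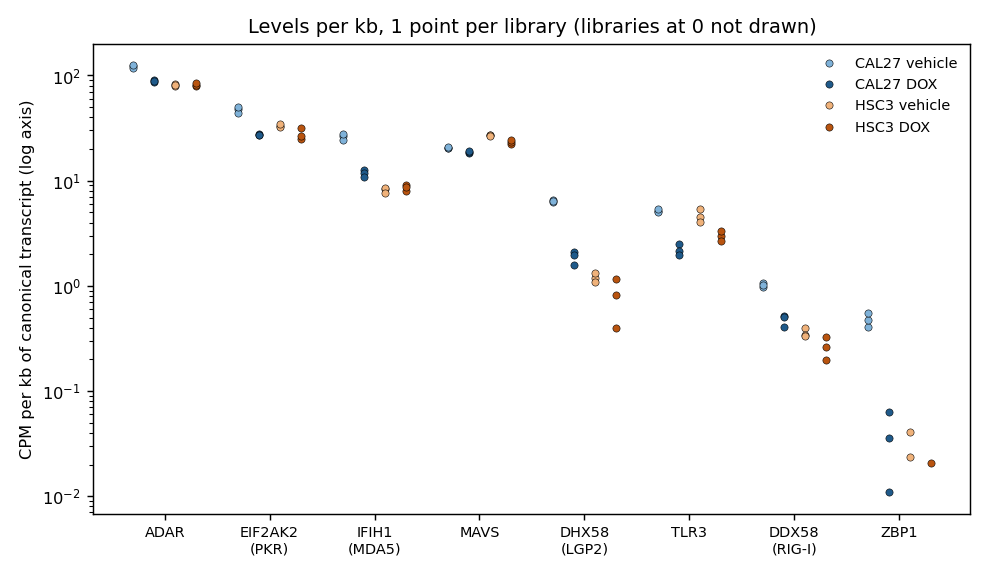
CPM per kb of canonical transcript (log axis) for each gene, 1 point per library, coloured by cell line and treatment; libraries at 0 are not drawn. With this length, ADAR is highest in all groups and ZBP1 lowest, and IFIH1 lies above MAVS only in the CAL27 vehicle libraries.

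The low level of DDX58 has a feature of the annotation beside it. In GENCODE v44 on GRCh38, RIG-I lies at chr9:32455302-32526208 on the minus strand, with 18 exons and 4628 exonic bases in its canonical transcript. Of these bases, 96.6% are also exonic in an unnamed readthrough gene on the same strand, which was not in the count tables, and 157 bases are RIG-I's alone. The first RIG-I exon lies outside the readthrough gene. Values of DDX58 are uncertain for this reason, and the part of the overlap in its level was not tested. No other member shared exonic bases with a gene on its own strand, and EIF2AK2 shared 2.02% with genes on the opposite strand. Counts per gene do not separate the long, IFN-inducible ADAR isoform from the short, constitutive one.

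**Figure D2:**
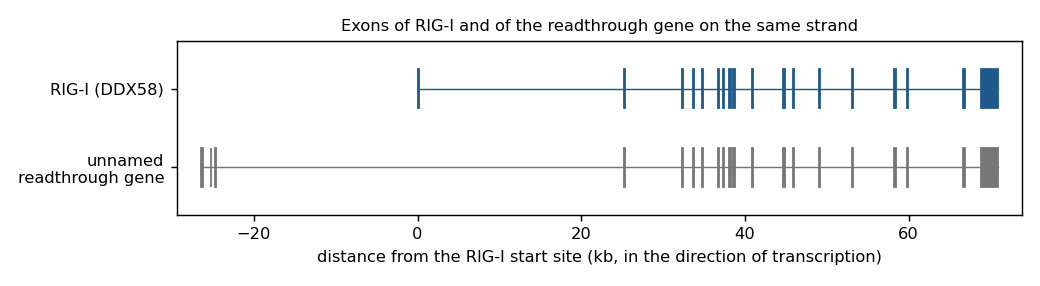
Exons (boxes, to scale, with a thin outline so that short exons remain visible) of RIG-I and of the readthrough gene, by distance in kb from the RIG-I start site in the direction of transcription. All RIG-I exons after the first are shared with the readthrough gene, which starts upstream.

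The baseline comparison asked how the lines differed before MUC1-C was silenced. Vehicle-treated HSC3 cells had lower levels of 6 members than CAL27 cells and a higher level of MAVS by edgeR's quasi-likelihood test (adjusted p under 0.05). Over all 20694 genes tested, 32.3% were lower and 30.6% higher in HSC3, with a median log2 difference of -0.12. The RIG-I-like receptors differed most among the members other than ZBP1. DHX58 was at 17.0, 16.2 and 16.7 CPM in CAL27 and at 3.09, 3.45 and 2.79 CPM in HSC3, a log2 difference of -2.42 ± 0.255 (SE; adjusted p = 5.3e-07). IFIH1 was at 95.2, 88.1 and 99.2 CPM in CAL27 and at 29.5, 30.8 and 27.1 CPM in HSC3 (log2 difference -1.69 ± 0.0758 SE, adjusted p = 2.1e-11). DDX58 was at 4.97, 4.52 and 4.73 CPM against 1.82, 1.57 and 1.55 CPM (log2 difference -1.52 ± 0.191 SE, adjusted p = 3.8e-06). All 3 receptors were thus lower in every HSC3 library than in any CAL27 library, with the uncertainty of the DDX58 values given above.

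The duplex-RNA kinase and editor were also lower in HSC3, by smaller amounts. ADAR was at 821, 784 and 825 CPM in CAL27 and at 553, 529 and 534 CPM in HSC3, which is 66.5% of the CAL27 level (adjusted p = 1.3e-08). EIF2AK2 was at 474, 440 and 496 CPM against 327, 320 and 343 CPM, which is 70.3% (adjusted p = 1.8e-05). MAVS was the member that stood higher in HSC3, at 318, 317 and 313 CPM against 242, 241 and 244 CPM in CAL27, which is 130% (95% confidence interval of the log2 difference 0.287 to 0.476, adjusted p = 1.6e-06). TLR3 was at 27.1, 24.5 and 32.0 CPM in HSC3 and at 30.7, 30.0 and 32.1 CPM in CAL27, and the groups overlapped (log2 difference -0.15, interval -0.383 to 0.0837, adjusted p = 0.25). ZBP1 had 121, 109 and 143 counts in the CAL27 vehicle libraries and 10, 0 and 6 counts in HSC3. Its fitted log2 difference was -4.38 ± 0.978 (SE; adjusted p = 0.0010), and the HSC3 counts are too few to set its size. Scaling by library totals moved the median of all genes in this comparison from -0.118 to -0.388. With library totals the difference of MAVS was 0.11 rather than 0.38 on the log2 scale (adjusted p = 0.045). Of the genes called, 51.3% were lower in HSC3 in the main fit and 64.2% with library totals. TLR3 became lower in HSC3 under that scaling (log2 difference -0.42, adjusted p = 0.003) and without the third HSC3 vehicle library (log2 difference -0.27, adjusted p = 0.047).

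The DOX comparison in CAL27 asked how the sensors responded when MUC1 was silenced. All 8 members passed the test as lower with DOX (adjusted p under 0.05), and in each case every DOX library lay below every vehicle library. Over the 19239 genes tested, 21.8% were lower and 22.6% were higher. Of the members, 5 fell by a fold change (FC) over 2, against 5.11% of all genes. The median log2 fold change of the members was -1.13, and that of all genes was -0.0052. All 8 calls at this threshold held under each other normalization, filter, tool and left-out library run in CAL27, with an adjusted p of at most 0.026.

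The 3 RIG-I-like receptors all fell in CAL27 by more than 2-fold. DHX58 went from 17.0, 16.2 and 16.7 CPM with vehicle to 5.38, 5.07 and 4.08 CPM with DOX. This is 29.0% of the vehicle level (log2 fold change -1.78 ± 0.0868 SE, adjusted p = 2.1e-12). IFIH1 went from 95.2, 88.1 and 99.2 CPM to 45.5, 42.7 and 39.0 CPM, or 44.9% (log2 fold change -1.16 ± 0.0535 SE, adjusted p = 6e-12). The spread among libraries was small beside both changes. DDX58 went from 4.97, 4.52 and 4.73 CPM to 1.87, 2.41 and 2.32 CPM, or 46.5% (log2 fold change -1.11 ± 0.119 SE, adjusted p = 1.8e-07). The DDX58 values remain uncertain, as 96.6% of its canonical bases are shared with the readthrough gene. The adaptor MAVS changed least, from 242, 241 and 244 CPM to 216, 218 and 225 CPM. It retained 90.4% of its vehicle level (log2 fold change -0.15 ± 0.0369 SE, adjusted p = 0.0028).

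TLR3 and the effectors also fell in CAL27. TLR3 went from 30.7, 30.0 and 32.1 CPM to 14.9, 13.0 and 11.8 CPM, or 42.7% (log2 fold change -1.23 ± 0.0687 SE, adjusted p = 3.6e-11). EIF2AK2, which remained an abundant transcript, went from 474, 440 and 496 CPM to 276, 271 and 271 CPM, or 57.8% (log2 fold change -0.79 ± 0.0421 SE, adjusted p = 6.9e-12). ADAR went from 821, 784 and 825 CPM to 599, 577 and 580 CPM, or 72.1% (log2 fold change -0.47 ± 0.0378 SE, adjusted p = 3.2e-09). EIF2AK2 and ADAR thus kept larger shares of their vehicle levels than the receptors did. ZBP1 had the largest fall among the members and the fewest counts. It had 121, 109 and 143 counts with vehicle and 8, 14 and 3 counts with DOX, or 7.47% on the fitted scale (log2 fold change -3.74 ± 0.378 SE, 95% interval -4.53 to -2.95, adjusted p = 1e-07).

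**Figure D3:**
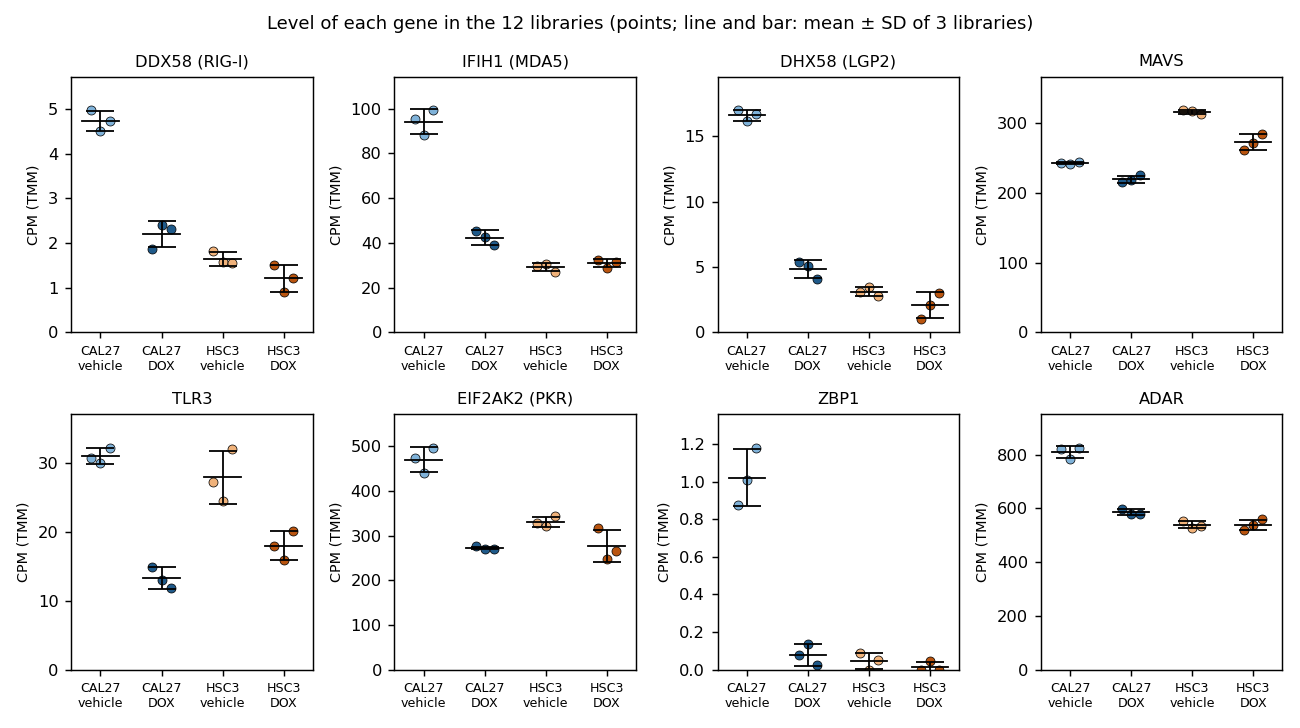
TMM-scaled CPM of each gene in the 12 libraries, with 1 point per library and the mean ± SD of 3 libraries per group; each panel starts at 0 and has its own scale. In CAL27 all DOX points lie below all vehicle points for every gene, while in HSC3 the groups overlap for IFIH1, DHX58, ZBP1 and ADAR.

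In HSC3 cells fewer members passed as lower than in CAL27. SEs of the log2 fold change were larger in HSC3 (DDX58 0.265 against 0.119, DHX58 0.327 against 0.0868). Fewer calls alone thus do not show smaller falls. Of the 7 members tested, TLR3, MAVS and EIF2AK2 passed as lower with DOX (adjusted p under 0.05), none was higher and none passed an FC over 2. Over the 18021 genes tested in this line, 15.4% were lower and 13.0% higher. ZBP1 did not pass the filter on low counts, with 10, 0 and 6 counts in the vehicle libraries and 0, 6 and 0 with DOX, and no fold change is given. TLR3 went from 27.1, 24.5 and 32.0 CPM to 18.0, 15.9 and 20.1 CPM, or 64.3% of the vehicle level (log2 fold change -0.64 ± 0.123 SE, adjusted p = 0.0026). The DOX libraries all lay below the vehicle libraries, and the call held under every alternative run, with adjusted p from 2.1e-05 to 0.018. MAVS went from 318, 317 and 313 CPM to 262, 272 and 285 CPM, or 86.1% (log2 fold change -0.22 ± 0.0579 SE, adjusted p = 0.017). EIF2AK2 went from 327, 320 and 343 CPM to 316, 248 and 265 CPM, or 83.5% (log2 fold change -0.26 ± 0.0823 SE, adjusted p = 0.036). With any 1 of the 3 HSC3 vehicle libraries left out, TLR3 alone remained called, as the adjusted p of MAVS then rose to 0.057 to 0.073 and that of EIF2AK2 to 0.073 to 0.14. EIF2AK2 also lost its call without the second (adjusted p = 0.12) or the third DOX library (adjusted p = 0.12).

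The RIG-I-like receptors did not pass the test in HSC3. IFIH1 was at 29.5, 30.8 and 27.1 CPM with vehicle and at 32.4, 28.9 and 31.2 CPM with DOX, and the groups overlapped. Its log2 fold change was 0.08 (95% interval -0.113 to 0.268, adjusted p = 0.58), so a fall of the size seen in CAL27 lies outside the interval. DHX58 was at 3.09, 3.45 and 2.79 CPM with vehicle and at 1.04, 2.11 and 3.03 CPM with DOX. The first DOX library was lowest and the third lay within the vehicle range, and the log2 fold change was -0.60 (interval -1.32 to 0.122, adjusted p = 0.22). Without the third DOX library it was -0.99 with an adjusted p of 0.050, just inside the threshold before rounding. DDX58 was at 1.82, 1.57 and 1.55 CPM with vehicle and at 1.50, 0.913 and 1.22 CPM with DOX (log2 fold change -0.45, interval -1.03 to 0.136, adjusted p = 0.25). Its DOX libraries lay below its vehicle libraries, at 123 to 223 counts in libraries with an estimated 7.76 to 15.6 counts per molecule. ADAR was at 553, 529 and 534 CPM with vehicle and at 520, 537 and 559 CPM with DOX. Its DOX mean was 99.7% of the vehicle level (interval of the log2 fold change -0.131 to 0.124, adjusted p = 0.97).

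**Figure D4:**
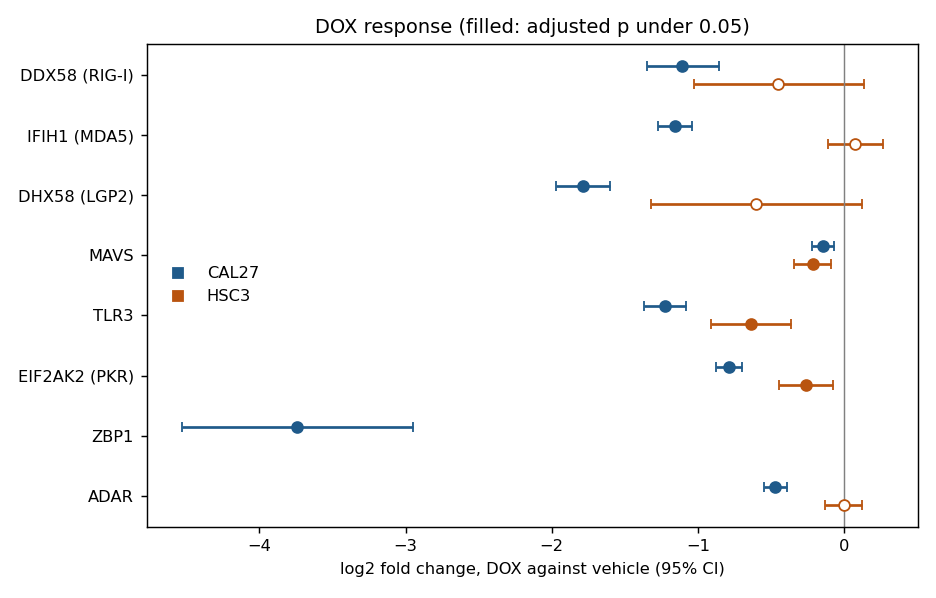
Log2 fold change of each gene, DOX against vehicle, with its 95% confidence interval, in CAL27 (blue) and HSC3 (orange); filled points have an adjusted p under 0.05 and ZBP1 was not tested in HSC3. All CAL27 intervals lie below 0, while the HSC3 intervals of DDX58, IFIH1, DHX58 and ADAR include 0.

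The difference between the 2 responses was tested as an interaction term in a joint fit of the 12 libraries. The response was more positive in HSC3 than in CAL27 for 5 of the 8 members, and none was more negative. Over all 20694 genes, 8.25% had a more positive and 12.3% a more negative response in HSC3. IFIH1 had the largest difference of those called, at 1.23 ± 0.105 on the log2 scale (SE; adjusted p = 1.2e-06). ADAR differed by 0.47 ± 0.0639 (adjusted p = 8.9e-05), EIF2AK2 by 0.53 ± 0.104 (adjusted p = 0.0018) and TLR3 by 0.59 ± 0.156 (adjusted p = 0.013). These 4 calls held under every alternative run. DHX58 differed by 1.18 ± 0.352 (adjusted p = 0.027), and this call was lost under 7 of 17 alternatives, with adjusted p up to 0.074. The libraries whose omission lost it were the first and the third vehicle libraries of each line, the third DOX library of HSC3 and the third DOX column of CAL27, and it was also lost with no filter on low counts (adjusted p = 0.072).

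The responses of 3 members were not shown to differ between the lines. MAVS differed by -0.07 on the log2 scale (95% interval -0.202 to 0.064, adjusted p = 0.51). It stood at 90.4% of vehicle in CAL27 and at 86.1% in HSC3. DDX58 differed by 0.66 (interval 0.0881 to 1.24, adjusted p = 0.10), and the second HSC3 DOX library decided this call, as the difference without it was 0.83 (adjusted p = 0.024). ZBP1 was fitted at 2.08 (interval -1.25 to 5.42, adjusted p = 0.41) on 16 counts in all HSC3 vehicle libraries and 6 in all HSC3 DOX libraries, and its sign turned to -1.82 without the second HSC3 DOX library, so nothing can be read from it.

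The transcription factors that sit between sensing and the ISGs were examined beside the members. STAT2 carries the type I IFN signal to the nucleus with IRF9. STAT2 fell from 231.5 ± 3.53 to 105.2 ± 3.94 CPM (mean ± SD, n = 3) in CAL27 (adjusted p = 8.9e-15) and from 138.4 ± 12.3 to 113.9 ± 5.05 CPM in HSC3 (adjusted p = 0.018), and its response differed between the lines (interaction 0.86, adjusted p = 6.1e-06). Like EIF2AK2 and MAVS in HSC3, STAT2 lost its HSC3 call without the first vehicle library (adjusted p = 0.099), and also without the third DOX library (adjusted p = 0.051). IRF7, which amplifies type I IFN, fell from 8.69 to 2.45 CPM in CAL27 (adjusted p = 3.2e-11) and from 9.49 to 4.98 CPM in HSC3 (adjusted p = 0.016; 0.097 without the first vehicle library). IRF3, which MAVS and TICAM1 activate directly, was at 41.4 and 37.2 CPM in CAL27 (log2 fold change -0.16, adjusted p = 0.010) and at 23.5 and 19.4 CPM in HSC3 (log2 fold change -0.28, adjusted p = 0.14). The CAL27 call of IRF3 was lost in 1 fit over all 12 libraries (adjusted p = 0.33), where the HSC3 value passed (adjusted p = 0.043), as it did without the second HSC3 DOX library (adjusted p = 0.035). IRF3 shares 14.2% of its canonical exonic bases with a gene on the opposite strand. IRF9 was at 0.206 CPM or less on average in every group, and 93.0% of its canonical exonic bases lie under a readthrough gene, so its values are not read. IFNB1, which signalling through MAVS is known to induce, did not pass the filter in either line, with 23 counts over the CAL27 vehicle and 27 over the CAL27 DOX libraries, and 8 and 24 in HSC3.

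Most of the listed regulators of the RIG-I-like receptors were also lower with DOX in CAL27, in a list written with earlier results known. Of 32 such genes, all tested in CAL27, 21 were lower and 2 higher with DOX (65.6% and 6.25%), with a median log2 fold change of -0.21. Over all genes tested in CAL27, 21.8% were lower and 22.6% higher, against 15.4% and 13.0% in HSC3, which are the background for every list here. In HSC3, 9 of 30 regulators tested were lower and 4 higher (30.0% and 13.3%), with a median of -0.07. DDX60, a helicase linked to RIG-I signalling, fell in both lines (log2 fold change -2.39 ± 0.0542 in CAL27 and -2.02 ± 0.115 in HSC3). OASL, an inactive relative of the oligoadenylate synthetases that binds RIG-I, fell in both lines (log2 fold change -1.63 ± 0.0976 in CAL27 and -6.08 ± 0.886 in HSC3). In HSC3 it went from 414, 128 and 248 counts to 0, 14 and 0 counts, too few to set the size of the HSC3 value. USP15, a deubiquitinase that acts on the RIG-I pathway, rose in both lines, by 0.27 ± 0.0371 and 0.48 ± 0.0949. CSNK2A1, a catalytic subunit of casein kinase 2, rose in CAL27 by 0.16 ± 0.0364, while its HSC3 value was 0.07 (adjusted p = 0.55). USP21, another deubiquitinase, rose in HSC3 by 0.34 ± 0.102, while its CAL27 value was 0.08 (adjusted p = 0.27).

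Of 40 genes that act with or after MAVS, all tested in each line, 13 were lower and 9 higher in CAL27 (32.5% and 22.5%, median log2 fold change -0.03), the latter share near that of all genes. In 1 fit over all 12 libraries, 5 were higher in CAL27. In HSC3, 7 were lower and 3 higher (17.5% and 7.50%, median -0.05). Besides IRF7, STING1, the adaptor of cytosolic DNA sensing, fell in CAL27 (log2 fold change -1.07 ± 0.114), while its HSC3 value was -0.49 (adjusted p = 0.052). RNF5, a ubiquitin ligase that acts on MAVS and STING1, fell (log2 fold change -0.80 ± 0.0633 in CAL27 and -1.15 ± 0.110 in HSC3). SMURF2, a ubiquitin ligase also known to act on MAVS, rose by 0.42 ± 0.0410 and 0.40 ± 0.0553. GPATCH3 rose in CAL27 by 0.32 ± 0.0950, while its HSC3 value was 0.38 (adjusted p = 0.28). TRAF6, a ligase of the signalling complex, rose in HSC3 by 0.63 ± 0.0714, while its CAL27 value was -0.03 (adjusted p = 0.49).

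The list of the TLR3 arm holds its adaptor TICAM1, chaperones, other Toll-like receptors and endosomal proteases. It also holds genes outside these classes, SCARA3 and WDFY1 among them. TLR7, TLR8 and TLR9 passed the filter on low counts in neither line. Of 20 genes tested in CAL27, 13 were lower and 3 higher (median log2 fold change -0.24). In HSC3, 10 of 21 were lower and 1 higher (median -0.21). The cathepsin CTSS fell (log2 fold change -1.77 ± 0.108 in CAL27 and -0.75 ± 0.101 in HSC3). The scavenger receptor family gene SCARA3 fell (log2 fold change -1.59 ± 0.123 and -3.08 ± 0.104), an FC over 2 in both lines. TLR2, a receptor of bacterial lipoproteins, fell (log2 fold change -0.80 ± 0.0841 in CAL27 and -1.20 ± 0.137 in HSC3). TLR4 and WDFY1 rose in CAL27, by 0.42 ± 0.110 and 0.16 ± 0.0375, while their HSC3 values were 0.98 (adjusted p = 0.064) and -0.14 (adjusted p = 0.24). The cathepsin CTSL rose by 0.14 ± 0.0457 in CAL27 and 0.22 ± 0.0714 in HSC3.

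The PKR and eIF2 arm, by contrast with EIF2AK2 itself, held more genes that rose in CAL27. Of 23 tested, 12 were higher and 5 lower (52.2% and 21.7%, median log2 fold change 0.12), and in HSC3 4 were higher and 4 lower (median 0.04). EIF2AK4 (GCN2), the eIF2α kinase of amino acid shortage, rose by 0.44 ± 0.0381 in CAL27 and by 0.47 ± 0.0554 in HSC3. PPP1R15B, which directs the phosphatase to eIF2α, rose by 0.49 ± 0.0371 and 0.39 ± 0.0577. The stress granule gene G3BP2 fell (log2 fold change -0.94 ± 0.0393 and -1.74 ± 0.0836), and the PKR activator PRKRA fell (log2 fold change -0.33 ± 0.0478 and -0.88 ± 0.0904). DDIT3, a transcription factor downstream of eIF2α phosphorylation, fell in HSC3 (log2 fold change -0.88 ± 0.195), while its CAL27 value was -0.16 (adjusted p = 0.35).

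Of the ZBP1 death arm, 7 of 14 genes tested in CAL27 were lower and 1 higher (median -0.20), and in HSC3 2 of 15 were lower and 1 higher (median -0.07). RIPK3, the partner kinase of ZBP1, was at 0 CPM on average in CAL27 vehicle libraries and at 0.123 CPM in HSC3 (named after its values were seen). CASP1 and CASP10 fell in CAL27 (log2 fold change -0.92 ± 0.0668 and -0.70 ± 0.0552), and NLRP1, an inflammasome sensor that also binds duplex RNA, rose by 0.78 ± 0.0770. The HSC3 values of these genes were -0.07, 0.06 and -0.08 (adjusted p = 0.63, 0.81 and 0.61). In HSC3, NLRP3 fell (log2 fold change -0.82 ± 0.149), and in CAL27 it was at 0.0866 and 0.0710 CPM (adjusted p = 0.76). Its adaptor PYCARD fell in both lines (log2 fold change -0.48 ± 0.0759 in CAL27 and -0.53 ± 0.170 in HSC3).

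Of 30 genes of RNA editing, duplex binding and duplex removal tested in CAL27, 6 were lower and 10 higher (20% and 33.3%, median log2 fold change 0.05), and with 1 library left out 6 to 7 were lower and 7 to 11 higher. In HSC3, 9 of 29 were lower and 2 higher (31.0% and 6.90%, median -0.18). SAMHD1, a dNTP hydrolase, fell (log2 fold change -1.42 ± 0.0416 in CAL27 and -0.69 ± 0.0803 in HSC3). The tRNA deaminase ADAT1 fell (log2 fold change -0.69 ± 0.0446 in CAL27 and -1.56 ± 0.101 in HSC3). DICER1, which cuts duplex RNA, rose by 0.59 ± 0.0393 and 0.46 ± 0.0621. ILF2, a partner of duplex-binding proteins, rose in CAL27 by 0.33 ± 0.0368, while its HSC3 value was 0.0038 (adjusted p = 0.97). The Ski complex gene WDR61 rose by 0.18 ± 0.0550 in CAL27 and 0.38 ± 0.114 in HSC3.

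Among other RNA sensors and RNA-binding effectors, 13 of 28 were lower and 11 higher in CAL27 (median -0.02), and 11 of 27 were lower and 2 higher in HSC3 (median -0.08). The falls were large for the oligoadenylate synthetases, which activate RNase L on duplex RNA. OAS1 fell (log2 fold change -2.51 ± 0.0846 in CAL27 and -1.50 ± 0.188 in HSC3), OAS2 fell (log2 fold change -2.29 ± 0.0561 and -1.37 ± 0.0825), and OAS3 fell (log2 fold change -1.60 ± 0.0412 and -1.25 ± 0.0684). IFIT1, which binds RNA with an incomplete cap, fell (log2 fold change -2.11 ± 0.109 and -2.19 ± 0.163). These 4 genes, with OASL, had an FC over 2 in both lines, while no member did. The helicase genes DHX29 and DDX1 rose in both lines, DHX29 by 0.42 ± 0.0375 in CAL27 and 0.33 ± 0.0742 in HSC3, and DDX1 by 0.29 ± 0.0410 and 0.31 ± 0.0552.

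Of 28 IFN and IFN receptor genes, 9 were tested in each line, and 3 in CAL27 and 4 in HSC3 were lower, with none higher (median log2 fold change -0.30 and -0.64). In CAL27, 1 gene was higher with no filter on low counts and with any 1 vehicle library or 1 of the DOX libraries left out. The HSC3 median moved to -1.004 with counts divided by counts per molecule, and to -0.99 with the replicate number as a block, and it ranged from -0.94 to -0.48 with 1 library left out. IFNGR1, a chain of the IFN-γ receptor, fell (log2 fold change -1.20 ± 0.0474 in CAL27 and -1.44 ± 0.110 in HSC3), and the IFN-λ receptor chain IFNLR1 fell (log2 fold change -0.73 ± 0.0993 and -1.39 ± 0.128). In IFN signalling, 11 of 18 genes were lower and 4 higher in CAL27 (median -0.19), against 4 lower and 3 higher in HSC3 (median 0.02). ISG15 and USP18, a ubiquitin-like modifier and the protease that removes it, fell in CAL27 (log2 fold change -1.39 ± 0.0603 and -1.29 ± 0.0869), while their HSC3 values were 0.08 (adjusted p = 0.83) and -0.22 (adjusted p = 0.59). The tyrosine phosphatase gene PTPN1 rose by 0.37 ± 0.0383 in CAL27 and 0.41 ± 0.0614 in HSC3. PTPN11, another, rose in CAL27 by 0.44 ± 0.0388, while its HSC3 value was 0.10 (adjusted p = 0.27). SOCS3, a feedback inhibitor of JAK signalling, rose by 0.35 ± 0.0672 in CAL27 and 1.21 ± 0.0848 in HSC3. JAK2 fell in HSC3 (log2 fold change -0.51 ± 0.111), while its CAL27 value was 0.02 (adjusted p = 0.82). Values after ± in these paragraphs on gene lists are SEs of the log2 fold change, and every fall and rise in them had an adjusted p under 0.05 by edgeR. Of these calls, some were lost when 1 library was left out. In HSC3, USP21, WDR61 and CTSL lost theirs on leaving out any 1 library other than the first DOX library, and PYCARD on leaving out any 1 vehicle library or the third DOX library. In CAL27, GPATCH3 lost its call without the first vehicle library, and CTSL and WDR61 lost theirs on leaving out the second or the third vehicle library or 1 of the DOX libraries. In HSC3 the counts of list genes also rested on single libraries. The number of receptor regulators lower in HSC3 ranged from 5 to 10 with 1 library left out and that of those higher from 2 to 8. The number of MAVS-associated genes lower ranged from 5 to 11 and that of those higher from 2 to 7. In IFN signalling, 2 to 4 genes were lower and 3 to 5 higher.

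**Figure D5:**
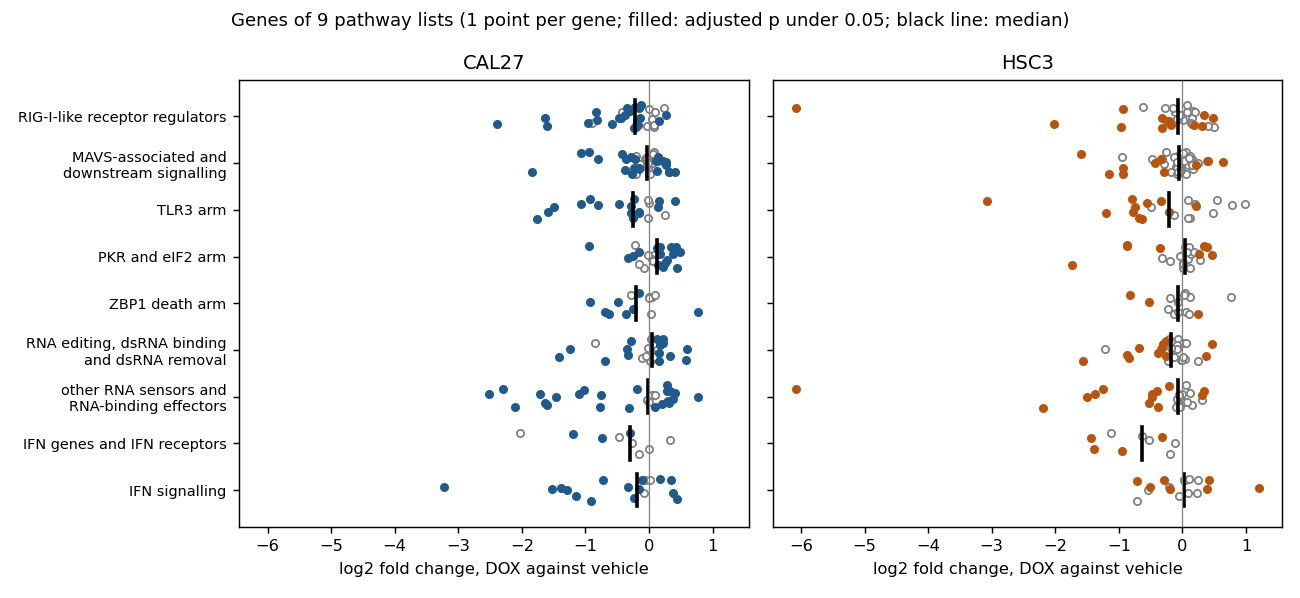
Log2 fold change, DOX against vehicle, of the tested genes of 9 pathway lists in CAL27 (left) and HSC3 (right), 1 point per gene, filled where the adjusted p is under 0.05, with the median of each list as a black line. In CAL27 the medians lie between -0.30 for IFN genes and receptors and 0.12 for the PKR and eIF2 arm.

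For each member called in either line apart from ZBP1, the genes with the most similar pattern over the 12 libraries were found among 17163 genes tested in both lines. The measure was the root mean square difference of log2 CPM after each gene was centred on the vehicle mean of its line. MAVS had the closest neighbour, USP40, at 0.0225, followed by SIN3A at 0.0406 and ATG13 at 0.0410. N4BP1 was nearest to ADAR at 0.0397, DTX3L to EIF2AK2 at 0.0632, APOL6 to TLR3 at 0.0834 and KLHL24 to IFIH1 at 0.0889. The next neighbours were SUSD6 and VPS39 for ADAR, EHHADH and ARRDC3 for EIF2AK2, SLC6A9 and NCOA7 for TLR3, and APOL1 and SP110 for IFIH1. DHX58 was nearest to IRF7 at 0.212, SUSD4 and KRT17, and DDX58 to C12orf75 at 0.149, PCMTD1 and CASTOR3. Among the members themselves, ADAR and MAVS were the closest pair at 0.197 and DHX58 and MAVS the farthest at 0.917. The measure weighs the size of changes, so genes that change little lie close even where their responses differ. ADAR was called lower in CAL27 only (log2 fold change -0.47, and -0.0039 in HSC3), while MAVS was called lower in both lines (-0.15 and -0.22). These distances describe the 12 libraries, which all points share.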

How the data were processed

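RNA-seq of 12 libraries was analysed. The authors deposited 1 table of whole-number counts per gene symbol for each cell line, not normalized. Per the labels, libraries were made with a TruSeq Stranded mRNA kit. The submitters' processing notes name FastQC 0.11.9, STAR 2.7.9a, Subread 2.0.1, featureCounts and GRCh38. The study's methods also name a release of GRCh38 for the alignment, without saying which gene models were counted. The use of strand and the handling of duplicated and ambiguous reads in counting are not given in the sources used here, and they set how reads of overlapping genes and PCR copies enter the counts. In the CAL27 table the DOX columns are numbered 4 to 6 and the samples 1 to 3, so these columns were assigned to their group without a replicate number.

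Each line was fitted with edgeR 4.0.16 in R 4.3.3 (TMM factors, robust glmQLFit and glmQLFTest). Low genes were removed by filterByExpr (min.count 10, min.total.count 15). The baseline comparison and the interaction came from 1 fit of all 12 libraries. Calls were made at an adjusted p under 0.05 (Benjamini-Hochberg, over every gene in the fit), and the study's FC over 2 is given beside them. SEs are the size of the log2 value divided by the square root of F. The number of counts per molecule came from the zeros among genes with an expected count of 8 to 16. That expectation was the mean share in the other libraries of the same line, vehicle and DOX together. Intervals cover the spread between cultures. All fits were run on simulated counts without repeated copies of a molecule. Changes were planted only in genes with many counts, so these runs do not cover genes with few. The chi-square per degree of freedom of replicate pairs, with each count taken as 1 independent draw, was at least 6.35. As several counts can stand for 1 molecule, it does not separate spread between cultures from copies of molecules. Of 39368 symbols, 38934 were current in GENCODE v44 and 383 were older symbols. Lengths and overlaps refer to its canonical transcripts.

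The members and lists were chosen with earlier results of these data known. Besides the members and MUC1, STAT2, IRF9, IRF3, IRF7 and IFNB1, the text names list genes called in both lines with an FC over 2 of like sign, the 2 largest called changes per direction, list and line with DOX libraries outside the vehicle range (lowest mean log2 CPM 1), and the 3 genes nearest in pattern to each called member. Some genes that this rule names are not reported here. Alternatives were the median-of-ratios size factors, library totals, no filter, DESeq2 1.42.0, counts divided by counts per molecule and rounded, an FC over 2, 1 fit of all libraries, only the vehicle libraries for the baseline, a replicate block in HSC3 and each library left out in turn.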

Additional observations from a re-analysis of the deposited data

Results flagged for a closer look

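For 5 members the DOX response differed between the lines by the interaction term of 1 fit of all 12 libraries (edgeR, adjusted p under 0.05), and in each case it was less negative, or not negative, in HSC3. The difference (HSC3 response minus CAL27 response, log2) was 1.23 for IFIH1, 1.18 for DHX58, 0.59 for TLR3, 0.53 for EIF2AK2 and 0.47 for ADAR. IFIH1, DHX58, EIF2AK2 and ADAR also started from a lower vehicle level in HSC3, and MUC1 did too, at 1.76 ± 0.186 CPM (SD, n = 3) against 55.3 ± 2.79 CPM. The part of these starting levels in the differences was not tested.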

How the results depend on the processing

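The counts of members lower in CAL27 and lower or higher at baseline stayed within 1.5 times under each other normalization, filter, tool and left-out library. Requiring an FC over 2 gave 5 members lower in CAL27, 0 lower in HSC3, 0 higher in vehicle-treated HSC3 and 2 with a more positive response in HSC3. Leaving out 1 library gave 1 to 3 members lower in HSC3. ADAR in HSC3, not called in any fit, changed sign to 0.00726 with median-of-ratios size factors, to 0.00723 with DESeq2, to 0.000283 in 1 fit of all libraries, and to 0.0180 without the first vehicle library and 0.0256 without the first DOX library, with a range of -0.0342 to 0.0256 over left-out libraries. ZBP1 in the interaction changed sign to -1.82 without the second HSC3 DOX library, the low end of a range to 2.86. The cause was not tested in any of these. With the HSC3 replicate number as a block, 3 members were lower, as without it, and the replicate block changed no call of a member. The deviations of same-numbered HSC3 libraries from their group means correlated at -0.199, 0.342 and -0.340, so no pairing by number was seen. With 3 libraries centred on their own mean, these correlations are tied to each other and cannot exclude pairs. No paired analysis was possible in CAL27 because its DOX columns carry no number of their own. Of the list genes named, CTSL lost its HSC3 call with the block (adjusted p = 0.093), with library totals (0.064) and with no filter (0.070), and CSNK2A1, TLR4, WDFY1, CTSL, WDR61 and GPATCH3 lost their CAL27 calls in 1 fit of all libraries (adjusted p 0.061 to 0.27). Over all genes, that fit called 2337 lower and 2746 higher in CAL27 rather than 4203 and 4351. Without the second vehicle library 1514 rather than 2342 genes were higher in HSC3, and without the first HSC3 DOX library 2614 rather than 1708 had a more positive response in HSC3. EIF2AK2 in HSC3 also lost its call with median-of-ratios size factors (adjusted p = 0.062). Depth in molecules limits DDX58, DHX58 and ZBP1 in HSC3 most.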
